A study of Homo sapiens with 24 samples.

Results

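The large histone gene cluster on the short arm of chromosome 6 was followed through 18 peak lists. They come from chromatin immunoprecipitation followed by sequencing (ChIP-seq) in UMUC1 cells, an established line from a human bladder cancer. The members described here were all peaks or regions that overlapped 26.015 to 27.865 Mb of chromosome 6 on hg19, which is 1.85 Mb or 37 bins of 50 kb. These limits are coordinates and use no measured value. There were 1222 members among 1483402 regions in all lists. Of these, 0 were UTX peaks, 27 were MLL4 peaks, 508 were H3K27ac regions, 190 were H3K27me3 regions and 497 were H3K4me1 regions.

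Replication-dependent histone genes encode the core histones H2A, H2B, H3 and H4 and the linker histone H1. They have no introns, their mRNAs end in a stem-loop in place of a poly(A) tail, and cycling cells transcribe them in S phase from a nuclear body that forms at the cluster. Acetylation of H3 lysine 27 (H3K27ac) marks active promoters and enhancers, monomethylation of H3 lysine 4 (H3K4me1) is typical of enhancers and of the flanks of promoters, and trimethylation of H3 lysine 27 (H3K27me3) is the mark that the Polycomb complex deposits. UTX (KDM6A) removes methyl groups from H3 lysine 27 and works in a complex with MLL4 (KMT2D), which writes H3K4me1.

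All lines were stable UMUC1 derivatives with a puromycin-resistance pSIN construct, either empty (EV), with wild-type UTX (WT) or with UTX altered at H1146A and E1148A in its catalytic domain (HEAA). The cells were collected on day 3 after plating. H3K27ac had 2 numbered libraries in each line, while UTX, MLL4, H3K4me1 and H3K27me3 had 1 list in each line, so that values from those 4 targets have no replicate error. Of 24 samples 6 were inputs, which had no list here. Lists lengthen with sequencing depth and antibody performance, and neither can be read from them. The depth of each sample is therefore unknown. H3K27ac lists held between 37298 and 72700 regions, and the second library was the shorter in every line.

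In the RefSeq gene table (GRCh38.p14), which served here only for names and gene order, the block from the first to the last histone gene of the cluster held 53 protein-coding histone genes. They comprised 6 H1, 11 H2A, 14 H2B, 10 H3 and 12 H4 genes, with 9 histone pseudogenes. Histone genes came in 3 runs of 32, 5 and 16 protein-coding members. Between the first and second runs lay 74 other genes, 39 of them tRNA genes, and between the second run and the last lay 76, with 51 tRNA genes. The table gave 98 tRNA genes in the block, 22.1% of the 443 on the 22 autosomes, X and Y. Positions on that assembly were not carried over to hg19, so no region below is assigned to a gene.

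Promoter sequences from RefSeq were at hand for 48 of the 53 genes. They were searched on both strands, over the 250 bases before the gene start, for 3 short elements known from histone promoters. The TATA box core TATAAA was present in 31 of 48 promoters (64.6%), against 11.1% of 27305 promoters in the table. A CCAAT box was present in 41 of 48 (85.4%), against 33.0% of all promoters; all 38 promoters of the H1, H2A, H2B and H3 genes held it and 3 of 10 H4 promoters did. The octamer ATTTGCAT, the element bound by the POU factor OCT1, was present in 20 of 48 (41.7%), against 1.66% of all promoters. It stood in 11 of 14 H2B and 8 of 10 H2A promoters, in 1 of 8 H3 promoters and in no H1 or H4 promoter. Promoters were counted gene by gene, so an element lying in the windows of neighbouring genes counts once for each. The 3 elements share no position with one another in the sequences printed here, and a match is a run of letters and not a measured binding site. The 150 bases before the start of an H2B gene and of an H3 gene are shown because they hold these elements, the octamer in the H2B stretch only. H2BC3 lies on the minus strand (GRCh38.p14 chr6:26043714-26043863) and H3C1 on the plus strand (GRCh38.p14 chr6:26020301-26020450). Capitals mark the 3 elements. These positions belong to another build than the regions below and cannot be set against them.
H2BC3: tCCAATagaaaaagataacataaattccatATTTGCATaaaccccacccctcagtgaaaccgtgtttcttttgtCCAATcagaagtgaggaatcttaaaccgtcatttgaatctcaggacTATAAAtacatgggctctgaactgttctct
H3C1: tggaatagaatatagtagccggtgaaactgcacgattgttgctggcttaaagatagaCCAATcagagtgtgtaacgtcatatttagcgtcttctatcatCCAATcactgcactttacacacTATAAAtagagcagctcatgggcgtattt

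The cluster was rich in H3K27ac in every library. H3K27ac regions covered 10.1% of its bases in EV library 1 and 8.27% in EV library 2, 9.77% and 6.67% in the WT libraries, and 11.0% and 5.70% in the HEAA libraries. Over the other 51391 bins of the genome that held any region, the same lists covered 3.42% and 2.78% in EV, 3.73% and 2.15% in WT, and 4.29% and 1.87% in HEAA. The ranges of the cluster and of the other bins did not overlap. The mean was 8.58 ± 2.07% in the cluster and 3.04 ± 0.939% elsewhere (SD, n = 6), a difference of 5.54 percentage points (range 3.82 to 6.69). It had the same direction in 6 of 6 libraries (exact two-sided sign-flip permutation test, p = 0.03125, the smallest that 6 libraries allow). Each cluster value was 2.55 to 3.10 times the value elsewhere in its own list. Nothing in the labels ties the numbered libraries to separate cultures, so p-values here measure only the spread between libraries of 1 cell line, which may be technical.

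Acetylation was concentrated at the 2 ends of the cluster and at 1 point between them. The 5 bins with the most H3K27ac began at 26.015, 27.765, 26.165, 26.115 and 26.215 Mb. In the bin at 26.015 Mb, which had the most, the acetylated length was 25.7 and 21.8 kb in the EV libraries, 23.7 and 19.5 kb in WT, and 27.0 and 15.8 kb in HEAA. The next highest, at 27.765 Mb, had 24.9 and 18.2 kb in EV, 21.8 and 13.8 kb in WT, and 25.2 and 12.7 kb in HEAA. In both bins the second library was lower than the first in every line, and the EV values lay within the range of the other libraries. The mean over the 6 libraries was 17.6 kb at 26.165 Mb, 13.6 kb at 26.115 Mb and 12.5 kb at 26.215 Mb. In the bin at 26.315 Mb it was only 0.592 to 4.38 kb.

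**Figure D1:**
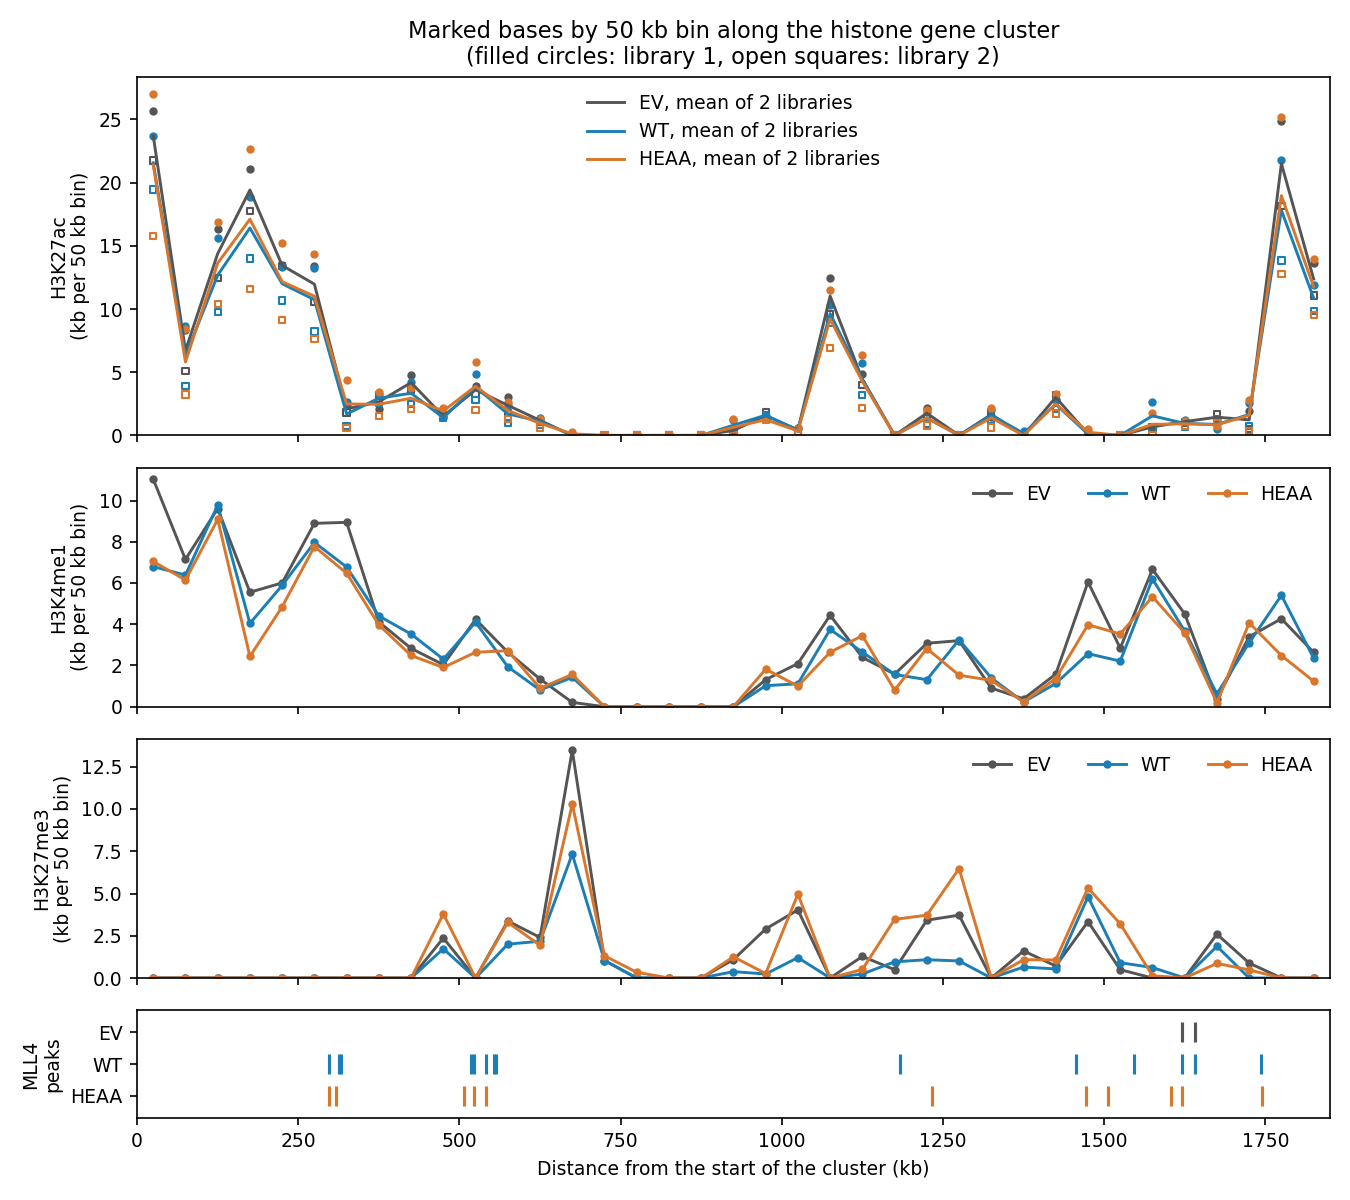
H3K27ac, H3K4me1 and H3K27me3 bases (kb per bin of 50 kb) and MLL4 peaks along the 1.85 Mb of the cluster, by distance from its start, with points for single libraries or lists and, for H3K27ac, lines for the mean of 2 libraries. H3K27ac is highest at the ends and in 1 bin in between, and H3K27me3 is at 0 there. Most MLL4 peaks lie between the acetylated blocks, as do 28 of the 37 bins.

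Bins with a mean of at least 5 kb of H3K27ac form 3 acetylated blocks, at 26.015 to 26.315, 27.065 to 27.115 and 27.765 to 27.865 Mb. This limit was set after the values had been seen, and the blocks carry no test. Their high share of H3K27ac follows from the limit. The 9 bins of these blocks held 79.8% and 78.4% of the H3K27ac bases of the cluster in the EV libraries, 76.0% and 80.0% in WT, and 76.6% and 82.4% in HEAA. Within the first block between 19.2% (HEAA library 2) and 34.8% (HEAA library 1) of all bases were acetylated, and within the last block between 22.3% and 39.2% in the same libraries. In the 28 bins between the blocks the share was 1.32% to 3.40%. H3K27ac was present in all 6 libraries in 25 of the 37 bins and in none of them in 7, while 31.7% of the bins elsewhere had it in all libraries and 45.3% in none. The bins at 26.815 and 26.865 Mb were free of any region in all 18 lists.

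More of the acetylated regions were common to all libraries than in the genome at large. Merged over the 6 libraries they gave 104 regions, of which 56 (53.8%) were called in every library, against 31.8% of all 81739 merged H3K27ac regions of the genome. Where a library had to cover at least 50% of a merged region, the count was 29 of 104 (27.9%), against 15.6%. With any overlap counted, of the 104, 0 had all 4 WT and HEAA libraries and neither EV library, against 0.541% of all regions. Likewise 0 had both EV libraries and no other, against 0.910%. The 56 shared regions had a median width of 2471.5 bp, near the 2576 bp of such regions in the genome. The blocks held 33 of them and the bins in between 23.

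The widest shared region, at chr6:26193443-26207683, spanned 14.2 kb. It was followed by chr6:26024513-26036350 (11.8 kb), chr6:27774421-27786098 (11.7 kb), chr6:27832375-27842610 (10.2 kb) and chr6:26121208-26128878 (7.67 kb). All 5 lie in the first or the last block, as the limit of the blocks on H3K27ac length makes wide regions do. In the widest, the called length was 12.95 and 10.8 kb in the EV libraries, 11.1 and 9.97 kb in WT, and 13.9 and 8.75 kb in HEAA. The lengths of the lines overlapped.

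Fold enrichment over background is the peak caller's own value, and it was used only to rank regions inside a list. The best mean rank belonged to chr6:26284406-26287094, a region of 2.69 kb at the end of the first block. Its fold was 9.84 and 18.2 in the EV libraries, 9.80 and 10.9 in WT, and 12.005 and 13.3 in HEAA. These values put it among the top 1.58% to 7.76% of its lists. Next came the 14.2 kb region named above, and after it chr6:26053786-26058113, which was in the top 0.759% of EV library 1 and the top 16.8% of HEAA library 2. Of the 12 regions with the best mean rank, 11 lay in the 3 blocks, which were themselves chosen by H3K27ac length. The other 1, chr6:26986659-26988501, lay outside them and was in the top 2.50% to 9.38%. The remaining 8 of the 12 were at chr6:26020241-26024021, chr6:26121208-26128878, chr6:27802099-27808506, chr6:27098312-27103369, chr6:26155366-26160633, chr6:26043258-26047391, chr6:27112303-27116078 and chr6:26269149-26275102.

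**Figure D2:**
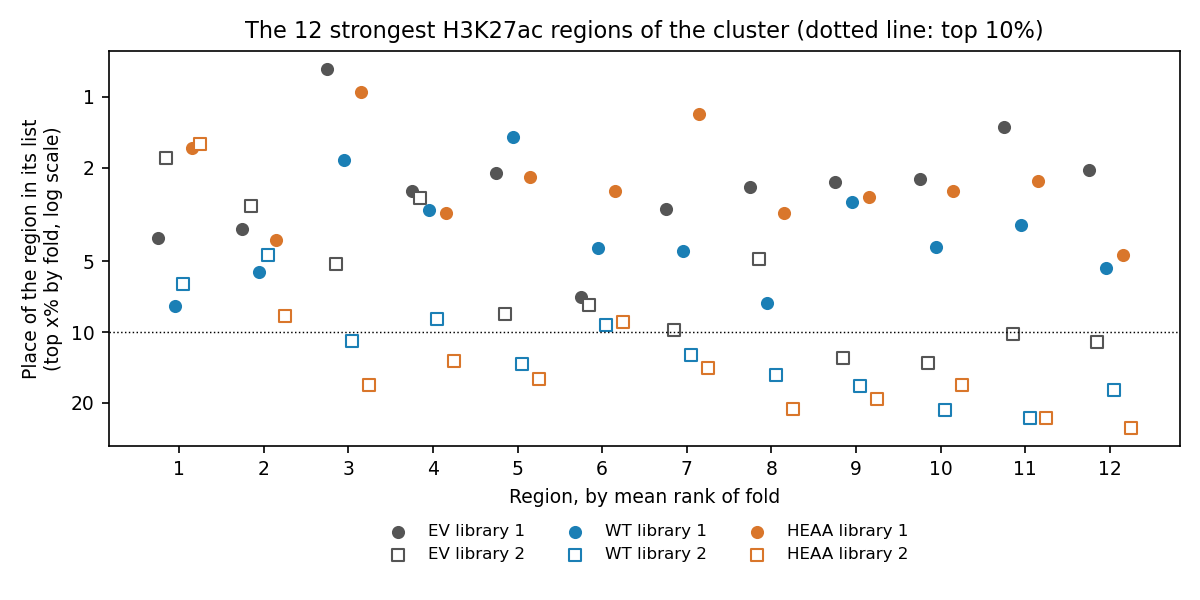
Place by fold (top x% of the list, log scale, best at the top) of the 12 shared H3K27ac regions with the best mean rank, with 1 point for each of the 6 libraries. All points lie between 0.759% and 25.6%, and for most regions the second libraries (open squares) rank lower than the first (filled circles).

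A region of the cluster stood in the top 10% of its list by fold more often in the first libraries than in the second. The share was 25.8% in EV, 19.5% in WT and 25.0% in HEAA for library 1, and 15.1%, 8.43% and 4.17% for library 2. It was thus above 10% in both EV libraries and on either side of it in WT and HEAA.

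No change of H3K27ac with either form of UTX was detectable in the cluster. Coverage was 8.27 ± 2.49% in the 4 WT and HEAA libraries and 9.19 ± 1.31% in the 2 EV libraries (SD). The difference was −0.915 percentage points (exact two-sided permutation test, p = 0.667; the smallest p of the 15 splits is 0.0667). It was 0.250 points between the first libraries and −2.08 points between the second. WT and HEAA had 8.22 ± 2.19% and 8.33 ± 3.72% (SD, n = 2 each), with a difference of −0.110 points (exact two-sided permutation test, p = 1, smallest possible 0.333). Its direction also turned with the library number, from −1.19 points for the first to 0.969 for the second. The spread between the 2 libraries of a line was thus larger than the differences between lines, and with so few libraries neither comparison could reach 0.05.

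Coverage was also divided by that of the other bins in the same list. This did not remove the link with list length, since the ratio was lowest in the longest list (2.55, 72700 regions) and highest in one of the shorter ones (3.10, 40470 regions). The cluster was then at 2.83 ± 0.283 times the rest in WT and HEAA (n = 4) and at 2.96 ± 0.00985 times in EV (n = 2). The difference of −0.135 did not pass the exact two-sided permutation test (p = 0.6). By number it was −0.371 and 0.101. WT exceeded HEAA by 0.0653 in relative coverage (exact two-sided permutation test, p = 0.667), and by 0.0664 and 0.0643 for the first and second libraries. This sign is opposite to that of the mean difference in coverage.

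Lines were also compared bin by bin. A bin was counted as different where both library numbers moved the same way by 2-fold or more and the larger length was at least 1 kb. Of 23 bins of the cluster that could be counted, 0 were higher and 0 lower in WT than in EV, against 1.47% and 2.55% of all bins. For HEAA against EV the counts were again 0 and 0 of 23, against 1.20% and 1.09%. Between WT and HEAA they were 0 and 0 of 18, against 0.0141% higher and 0.113% lower. At such low background shares, counts of 0 are near the genome's and say nothing particular about the cluster. Both WT libraries lay below both EV libraries in 3 of 26 bins (15.4% of all bins), and both HEAA libraries in 2 of 26 (7.60%). Both WT libraries lay above both EV libraries in 0 of 26 (6.63%), and both HEAA libraries in 1 of 26 (4.23%). With the second libraries alone, 23 of 23 bins had fewer acetylated bases in WT than in EV (81.4% of all bins) and 22 of 23 in HEAA (90.3%). With the first libraries alone the counts were 14 of 26 (38.0%) and 8 of 26 (21.5%). Fewer bases in the second WT and HEAA libraries than in the second EV library were thus common to bins of the whole genome.

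The acetylated bases of the cluster lay largely outside H3K4me1 regions. The share of H3K27ac bases that also lay in an H3K4me1 region of the same line was 21.8% and 18.1% for the EV libraries, 20.8% and 14.5% for WT, and 19.5% and 10.4% for HEAA. In the rest of the genome it was 72.1% and 68.2% for EV, 71.6% and 63.5% for WT, and 72.3% and 63.4% for HEAA. All cluster values lay below all values from elsewhere. The mean was 17.5 ± 4.34% in the cluster and 68.5 ± 4.20% elsewhere (SD, n = 6). The difference of −51.0 percentage points ranged from −53.0 to −49.0 and had the same sign in 6 of 6 libraries (exact two-sided sign-flip permutation test, p = 0.03125, the smallest possible). The 2 libraries of a line were compared with 1 and the same H3K4me1 list. The 6 values thus rest on 3 such lists and are not independent, although the test treats them as if they were.

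**Figure D3:**
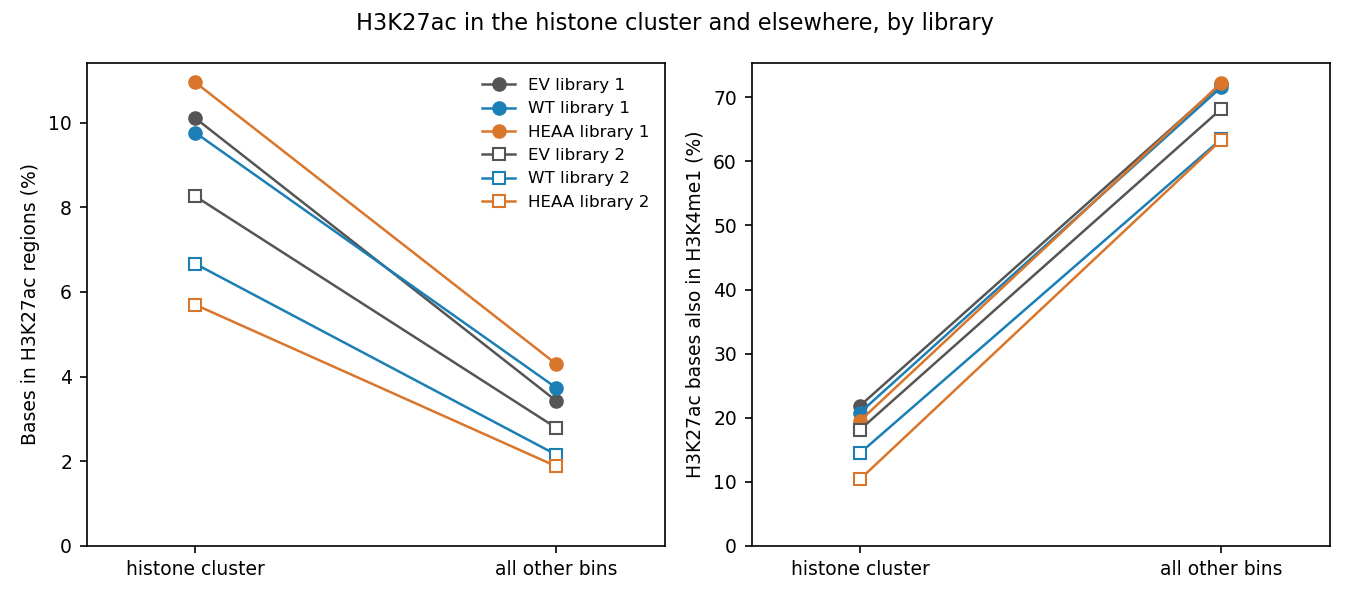
Percent of bases in H3K27ac regions (left) and percent of H3K27ac bases that also lie in H3K4me1 regions (right), in the cluster and in all other bins, with 1 line for each of the 6 libraries. Each line falls on the left, where the cluster has 5.70% to 11.0%, and rises on the right, where it has 10.4% to 21.8%.

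Strongly acetylated regions elsewhere had less H3K4me1 too, but more than those of the cluster. Among the regions in the top 10% of their list by fold, 56.8% of the bases outside the cluster lay in H3K4me1 in EV library 1, 56.7% in WT library 1 and 56.8% in HEAA library 1. For the second libraries the shares were 49.3%, 44.9% and 45.5%. In the cluster they were 18.7%, 13.0% and 15.1% for the first libraries, over 23, 17 and 26 regions. For the second they were 14.5%, 8.45% and 6.06%, over 11, 7 and 3 regions. This comparison was added after the values above were known and was not tested.

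The difference narrowed outside the edges of the acetylated regions. Over the 1 kb on either side, 22.7% (EV), 21.3% (WT) and 16.8% (HEAA) of the bases around the first-library regions of the cluster lay in H3K4me1, against 40.8%, 38.9% and 35.2% elsewhere. Around the second-library regions the shares were 30.6%, 30.0% and 27.4%, against 47.8%, 53.4% and 58.3%. In the cluster, H3K4me1 was denser around the regions of the second libraries than inside them in all 3 lines, and the first libraries differed little or went the other way. Elsewhere it was denser inside for all 6.

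Seen by region, 38 of the 56 shared H3K27ac regions touched H3K4me1 in all lines and 6 in none. In EV, 9 were without any H3K4me1 (16.1%, with a 95% Wilson interval of 8.69% to 27.8%). In WT there were 11 (19.6%, from 11.3% to 31.8%), and in HEAA 13 (23.2%, from 14.1% to 35.8%). The shares over the other shared regions of the genome were 4.16%, 5.40% and 4.93%. Among the 12 regions with the best mean rank, the share of bases in H3K4me1 was between 2.75% and 60.3%, with medians of 14.8% (EV), 12.6% (WT) and 14.9% (HEAA). The first of them, chr6:26284406-26287094, had 2.75% in the EV list, 8.96% in that of WT and 10.0% in that of HEAA. Intervals cover counting error only.

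H3K4me1 itself covered 126 kb of the cluster in EV, 110 kb in WT and 101 kb in HEAA. That is 6.83%, 5.93% and 5.48% of its bases, against 6.11%, 6.95% and 7.25% elsewhere. The cluster was thus above the rest of the genome in EV and below it in WT and HEAA. Its ratio to EV was 0.868 in WT and 0.802 in HEAA, where the rest of the genome gave 1.14 and 1.19. At a −log10 q of at least 5 the cluster kept 3 H3K4me1 regions in EV, 3 in HEAA and 0 in WT, and the ratio of HEAA to EV was 0.372. Since both ratios share the EV list and there was 1 list per line, they are descriptions with no replicate check.

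**Figure D4:**
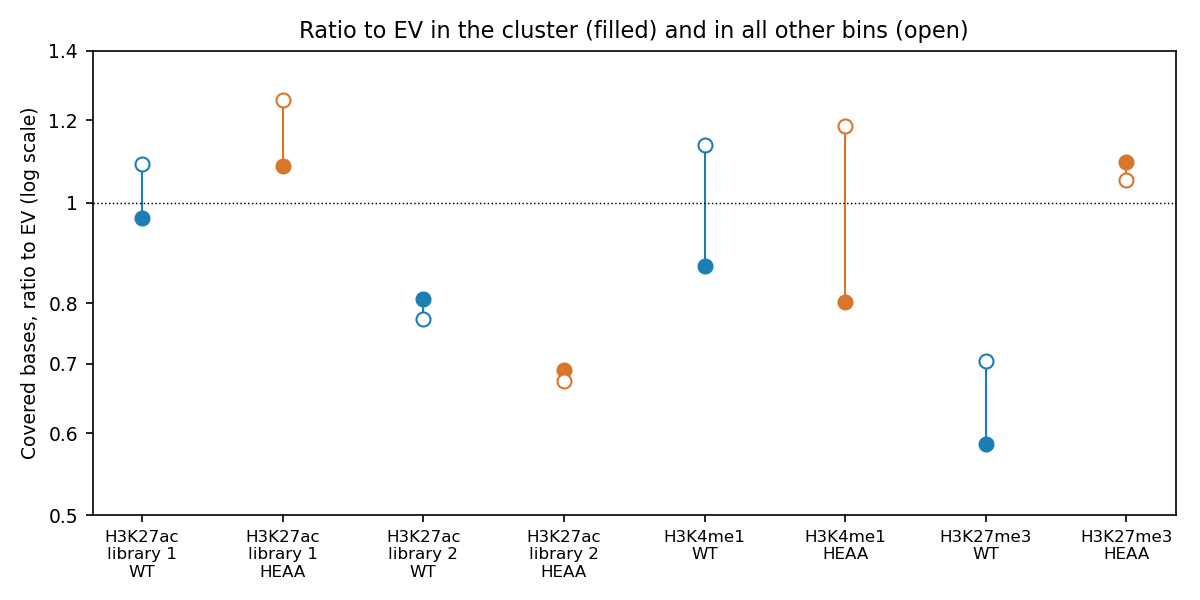
Covered bases relative to EV (log scale) for each mark, library and line, in the cluster (filled) and in all other bins (open). For H3K4me1 the cluster is at 0.868 and 0.802 while the other bins are above 1; for H3K27me3 the cluster moves to the same side of 1 as the other bins.

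Bins with the most H3K4me1 began at 26.115, 26.015, 26.265, 26.315 and 26.065 Mb, all in or beside the first block. The lengths at 26.115 Mb were 9.61 kb in EV, 9.77 kb in WT and 9.08 kb in HEAA. At 26.015 Mb they were 11.0, 6.79 and 7.04 kb, and at 26.315 Mb, just past the block, 8.94, 6.77 and 6.48 kb. EV was the highest line in both of the latter bins and WT was in the first. The bin at 26.165 Mb, among the most acetylated, had 5.55, 4.04 and 2.44 kb.

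Fewer H3K4me1 bases than in EV were found in 21 of 30 bins in WT, against 35.2% of all bins, and in 23 of 30 in HEAA, against 29.6%. Most of these differences were small. The median difference per bin was −0.377 kb in WT and −0.849 kb in HEAA, where all bins gave 0.549 and 0.715 kb. By at least 2-fold, WT was lower in 2 of 30 bins (3.73% of all bins) and higher in 1 (18.7%). HEAA was lower in 4 of 30 (2.74%) and higher in 1 (19.1%). Over the 3 acetylated blocks H3K4me1 summed to 59.6 kb in EV, 52.3 kb in WT and 43.7 kb in HEAA, and over the bins between them to 66.7, 57.3 and 57.6 kb.

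H3K27me3 was sparse in the cluster and was not called in its acetylated blocks. Its regions covered 49.2 kb in EV, 28.8 kb in WT and 53.8 kb in HEAA, or 2.66%, 1.56% and 2.91% of the bases, against 9.31%, 6.56% and 9.78% elsewhere. In all 3 lines, 0 bases of the 3 blocks were in an H3K27me3 region. The blocks were chosen by H3K27ac, and equally acetylated bins elsewhere were not counted. This 0 therefore cannot show a trait of the cluster. Within a line, 0 bp of H3K27ac overlapped H3K27me3 in any library, and elsewhere the overlap was also small, at 0.0171% to 0.0709% of H3K27ac bases. Of the 37 bins, 17 had H3K27me3 in all lines and 17 in none, where 48.8% and 30.8% of the bins elsewhere did.

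The bin with the most H3K27me3 began at 26.665 Mb, with 13.5 kb in EV, 7.33 kb in WT and 10.3 kb in HEAA. The others among the 5 highest were at 27.465, 27.265, 27.015 and 26.565 Mb. At 27.265 Mb the lengths were 3.72 kb in EV, 1.01 kb in WT and 6.48 kb in HEAA, and at 27.015 Mb 4.03, 1.21 and 4.96 kb. WT was the lowest line in these 3 bins. At 27.465 Mb it was not, with 4.81 kb against 3.34 kb in EV and 5.33 kb in HEAA.

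Merged over the lines, H3K27me3 gave 106 regions in the cluster. All 3 lines called 17 of them (16.0%, against 25.7% in the genome), and EV and HEAA without WT called 18 (17.0%, against 10.6%). EV alone called 22 (20.8%, against 21.0%), HEAA alone 20 (18.9%, against 21.8%) and WT alone 12 (11.3%, against 9.43%). WT shared 9 with HEAA alone (8.49%, against 7.40%) and 8 with EV alone (7.55%, against 3.91%). The widest 5 were each called in all lines: chr6:27479744-27484997 (5.25 kb), chr6:26689009-26693379 (4.37 kb), chr6:26661646-26665220 (3.58 kb), chr6:26501167-26503554 (2.39 kb) and chr6:26678829-26680929 (2.10 kb). In the second of them the called length was 4.37 kb in EV, 2.39 kb in WT and 3.77 kb in HEAA.

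WT had fewer H3K27me3 bases in the cluster than either other line, as it had in the rest of the genome. Its ratio to EV was 0.585 in the cluster and 0.704 elsewhere, and its ratio to HEAA was 0.535 and 0.671. HEAA stood at 1.09 times EV in the cluster and 1.05 times elsewhere. By bins, WT was at least 2-fold lower than EV in 7 of 14 (40.1% of all bins) and higher in 0 (6.86%). Against HEAA it was lower in 7 of 15 (37.8%) and higher in 1 (1.35%). HEAA was higher than EV in 2 of 17 (19.8%) and lower in 3 of 17 (16.7%). Fewer bases than in EV were found in 13 of 14 bins in WT (79.1%) and in 7 of 17 in HEAA (46.1%), and WT had fewer than HEAA in 13 of 15 (91.7%). The counts for WT were thus close to the background of all bins. These comparisons share lists and have no replicates, and whether the shorter WT list (199901 regions, against 231899 in EV and 247498 in HEAA) reflects depth was not tested.

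No UTX peak was called in the cluster in any line. The count was 0 of 31 peaks in EV, 0 of 2566 in WT and 0 of 2855 in HEAA. Taken as 3 peaks per list, the upper limit of the share was 9.68%, 0.117% and 0.105%. Elsewhere these lists held only 0.0121, 0.998 and 1.11 UTX peaks per Mb, and the cluster spans 1.85 Mb. A count of 0 is thus not far from the genome's rate and does not show that UTX is scarcer here. A UTX peak was present in 0 of the 35 bins of the cluster that held any region, where 4.30% of all such bins had one in WT, 4.74% in HEAA and 0.0544% in EV. On chromosome 6 the nearest UTX peak of any line lay 4054 kb before the start of the cluster, and 2204 kb beyond its end on the other side. No peak means that the signal did not pass the caller's threshold, not that UTX was shown to be absent.

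MLL4 peaks were called in the cluster, and more often than in the genome at large. There were 2 of 133 peaks in EV (1.50%, with a 95% Wilson interval from 0.413% to 5.32%). The WT list had 14 of 898 (1.56%, from 0.931% to 2.60%), and the HEAA list 11 of 1125 (0.978%, from 0.547% to 1.74%). Per Mb this was 1.08, 7.57 and 5.95 peaks, against 0.0510, 0.344 and 0.434 in the rest of the genome. A peak was present in 1 of 35 bins in EV (0.220% of all bins), in 9 of 35 in WT (1.59%) and in 8 of 35 in HEAA (1.99%). The whole EV list was also the shortest, so the lower count in EV is not particular to the cluster. At a −log10 q of at least 5 there remained 2 of 2 peaks in EV, 9 of 14 in WT and 11 of 11 in HEAA. WT then no longer had more peaks than HEAA. The intervals cover counting error within single lists only, and they treat peaks that lie close together as separate draws.

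The 27 MLL4 peaks merged to 22 sites, of which 4 (18.2%) were called in more than 1 line, against 31.3% of the 1551 merged MLL4 sites elsewhere. WT alone called 10 (45.5%, against 26.5%) and HEAA alone 8 (36.4%, against 41.0%). The −log10 q of the WT-alone peaks went down to 2.75 and that of the HEAA-alone peaks to 6.46. Some WT-alone sites thus rest on weak peaks of their list. With depth unknown, −log10 q cannot be compared closely between lists. WT and HEAA shared 2 (9.09%, against 24.1%), EV and WT shared 1, and 1 was called in all lines (4.55%, against 5.67%). The site of all lines was chr6:27636303-27636555, with a fold of 9.49 in EV, 7.87 in HEAA and 10.7 in WT, where it ranked 9 of 898. EV and WT shared chr6:27655949-27656166 (fold 8.02 and 5.94). WT and HEAA shared chr6:26537677-26537944 (5.81 and 6.92) and chr6:27758977-27759236 (6.19 and 7.87). Sites of WT alone were chr6:26312782-26313008, chr6:26328373-26328544, chr6:26330456-26330633, chr6:26533099-26533287, chr6:26555450-26555614, chr6:26568953-26569200, chr6:26571976-26572192, chr6:27198187-27198437, chr6:27470823-27470990 and chr6:27560558-27560722, with folds from 4.48 to 8.66. Sites of HEAA alone were chr6:26311904-26312108, chr6:26322875-26323190, chr6:26521383-26521550, chr6:26556715-26556941, chr6:27248026-27248190, chr6:27487251-27487441, chr6:27521119-27521283 and chr6:27618606-27618831, with folds from 6.19 to 8.37. Several of these lie close together without overlapping, such as chr6:26311904-26312108 of HEAA and chr6:26312782-26313008 of WT.

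The MLL4 sites lay mostly outside the acetylated blocks and held no UTX peak. Of the 22, 2 lay in the 3 blocks, which make up only 9 of the 37 bins. Together the sites fell in 10 of the 37 bins. Since no UTX peak was called in the cluster, none of its MLL4 peaks could overlap one, and this is not a separate result. Of the whole MLL4 lists, 64.6% in WT and 66.7% in HEAA overlapped a UTX peak of the same line. In EV, which had 31 UTX peaks in all, the share was 1.50%. The nearest UTX peak was 2309 to 3756 kb away from each site. H3K27ac of the same line overlapped 2 of 14 peaks in WT with either library, against 92.7% and 74.2% of the WT list. In HEAA it overlapped 2 of 11 with the first library and 0 of 11 with the second, against 93.2% and 68.6%. H3K4me1 overlapped 2 of 14 in WT (48.4% of the list) and 0 of 11 in HEAA (53.4%). These shares were not tested, since peaks are not replicates.

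Overlap with marked chromatin was scarcer at the 22 sites than at MLL4 sites elsewhere. Of the 22, 16 overlapped no H3K27ac region of any library (72.7%, against 2.64% of the 1551 other sites), and 1, chr6:26537677-26537944, overlapped H3K27ac in all 6. No site overlapped H3K27me3, but that share was not computed for the sites elsewhere, so it shows nothing particular to the cluster. In no line did 16 of the 22 overlap H3K4me1 (72.7%, against 25.1%). An H3K4me1 region of some line lay within 1 kb of 21 (95.5%), which is near the 98.2% elsewhere. An H3K27ac region lay within 1 kb of 14 (63.6%), against 98.8%. The shares elsewhere were computed after the counts in the cluster had been seen, and the differences were not tested. The site called in all lines, chr6:27636303-27636555, lay 5 bp from the nearest H3K4me1 region and 3794 bp from the nearest H3K27ac region. Median peak width in the cluster was 203 bp in WT and 191 bp in HEAA, near the 205 and 210 bp of the whole lists.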

How the data were processed

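Peak lists came from ChIP-seq of 3 stable UMUC1 lines. Per the labels' protocols, fixation was with paraformaldehyde, UTX and MLL4 chromatin was cut with micrococcal nuclease and then sonicated, and histone-mark chromatin was sonicated. The submitters' processing notes name MACS2 and hg19 (GRCh37), with the version, aligner and read filters not given in the sources used here. Each deposited region had a score, a linear fold ratio over background, and the −log10 of its p-value and q-value. The authors' fold and q-value were used only to rank or filter regions within a list, and the deposited score was not used. No list held a q-value above 0.1 (the highest was 0.0999). What the word for merging in the UTX peak names stands for is not stated.

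Regions were merged, cut into bins of 50 kb and intersected (minimum overlap 1 bp) in Python 3.11.15 with NumPy 2.4.6, pandas 2.3.3 and SciPy 1.17.1, and plotted with matplotlib 3.10.9. The interval code was tested on simulated data. The rest of the genome means all other bins with at least 1 region. Libraries were compared with exact permutation tests; single lists were not tested. Named were all UTX and MLL4 peaks, the 12 shared H3K27ac regions that ranked best by mean fold rank and the 5 widest, the 5 widest H3K27me3 regions, and the 5 bins richest in each mark. The other bins and regions that are named, and the 3 blocks, were chosen after their values were seen. The members, lists and tests were chosen with earlier results of these data known. Sequence and annotation of hg19 were not used here, and RefSeq tables (GRCh38.p14) gave gene names, gene order and promoters.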

Additional observations from a re-analysis of the deposited data

Results flagged for a closer look

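The H3K27me3 bases of the cluster moved in opposite directions from EV in the 2 lines with UTX. The ratio to EV was 0.585 in WT, below 1, and 1.09 in HEAA, above 1. The rest of the genome gave ratios on the same sides of 1, at 0.704 and 1.05. Each value rests on 1 list per line and both share the EV list, so the difference between WT and HEAA was not tested.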

How the results depend on the processing

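Values were recomputed with the q limit, list length, cluster limits, bins or libraries changed. Of 111 recomputed values, 72 were classed as the same, 32 as moved, 4 as weaker and 3 as reversed. For differences, the same meant the same direction and, where tested, the same side of the p threshold. Counts were classed by size, with small shifts allowed, and many of the 72 were counts that stayed at 0. Every recomputed ratio was classed as moved, yet each kept its side of 1. Leaving out one replicate number turned the direction of 3 differences in H3K27ac coverage, which ranged from −2.08 to 0.250 points for WT and HEAA against EV, from −1.19 to 0.969 for WT against HEAA, and from −0.371 to 0.101 for coverage relative to the rest. The cluster's own differences from the rest kept their sign. Without 1 replicate number they were 4.61 to 6.47 points for H3K27ac and −51.3 to −50.7 points for its share in H3K4me1. With 3 libraries an exact permutation p cannot fall under 0.25. At a −log10 q of at least 5 the same differences were 5.25 and −40.3 points. With limits 100 kb wider on both sides they were 5.04 and −49.8 points. The permutation within replicate numbers (the replicate block) gave p = 0.444 and 1 for the differences in coverage (−0.915 and −0.110 points) and p = 0.444 for relative coverage (−0.135). Same-numbered libraries deviated together over all bins of the genome (r = 0.649 to 0.895). Over the 35 bins of the cluster that held any region, r was 0.867 to 0.915. With 2 numbers, however, such libraries are known to share only a number.

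With limits 100 kb wider on both sides, the ratios to EV were 0.904 (WT) and 0.813 (HEAA) for H3K4me1 and 0.574 and 1.14 for H3K27me3, and WT to HEAA was 0.503. At a −log10 q of at least 5, MLL4 had 9 peaks in WT, 11 in HEAA and 2 in EV, so WT no longer had the most. No H3K27me3 region remained, so no H3K27me3 ratio could be computed. H3K4me1 then kept 3 regions in EV and HEAA and 0 in WT (HEAA to EV 0.372), so its ratios rest on weak regions. Requiring 50% of a merged H3K27ac region to be covered left 29 called in all 6 libraries (27.9%, against 15.6% in the genome). It gave 1 in both EV libraries and no other (0.962%, against 1.25%).

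Counts of differing bins moved most. The shares over all bins of the genome were not computed at these settings. The counts below therefore have no background beside them and cannot show a trait of the cluster. At 1.5-fold, H3K27ac was lower in HEAA than in EV in 1 bin, H3K4me1 was higher in 2 and lower in 5 bins in WT and lower in 10 in HEAA, and H3K27me3 was higher in HEAA in 6. With a minimum of 2 kb, H3K4me1 was higher in 0 bins in WT and 0 in HEAA, and H3K27me3 in WT was lower than in EV in 4 and higher than in HEAA in 0. At the stricter q, H3K4me1 was higher in 0 bins in WT and HEAA and lower in 3 and 2, and each H3K27me3 count was 0. In bins of 25 kb, H3K4me1 was lower in 5 (WT) and 12 (HEAA) and higher in HEAA in 0, and H3K27me3 was higher in WT than EV in 1, in HEAA than EV in 4 and in WT than HEAA in 2.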
